A study of Homo sapiens with 6 samples.

Results

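A set of 10 nuclear genes whose products copy, package and transcribe mitochondrial DNA (mtDNA), or switch on the genes for such products, was followed in SiHa cells after knockdown of calponin 3 (CNN3), an actin-binding protein. The set was TFAM, TFB1M, TFB2M, POLRMT, POLG, POLG2, SSBP1, MTERF1, PPARGC1B and NRF1, and it was chosen by 1 measured value, the log2 fold change of TFAM, which was lower with the knockdown in these same samples. The values of the set in this comparison are therefore a description, and no test is given for TFAM or for the set as a whole. Calls given for the other factors come from the test over all genes that passed the filter on low counts. The count table held 48162 genes, all 10 factors among them, and 15860 genes passed the filter on low counts, again with all 10 factors. The lowest count of any factor in any sample was 138.

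SiHa is an established human cervical cancer cell line. Cells received si-CNN3#1, a short RNA duplex (siRNA) that targets CNN3 messages, or si-NC as the control, and RNA was taken 48 h later, with 3 samples of each group from independent assays per the study's methods. The comparison asks which transcripts change when CNN3 is reduced, and it rests on 1 cell line and 1 siRNA.

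The mitochondrial genome is a small circle of DNA that encodes a few respiratory chain proteins and the RNAs needed to make them. All proteins that copy and read it come from nuclear genes. TFAM coats and bends the DNA and binds its promoters, where POLRMT, the mitochondrial RNA polymerase, starts transcription together with TFB2M. POLG, the DNA polymerase, copies the genome with its accessory subunit POLG2, the helicase TWNK and the single-stranded DNA-binding protein SSBP1. NRF1 and coactivators of the PGC-1 family, such as PPARGC1B, act on the nuclear genes of this machinery.

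Total counts ran from 18147028 to 19026341 with si-CNN3#1 and from 20287139 to 24976517 with si-NC, so every control sample was deeper. CNN3 had 25.99, 26.77 and 31.44 normalized CPM (counts scaled to a fixed library size) in the 3 knockdown samples and 56.5, 51.7 and 57.2 in the controls (log2 fold change -0.97, SE 0.06; Benjamini-Hochberg adjusted p = 2.04e-20 by the edgeR quasi-likelihood test). The groups were apart for CNN3. Of 9 epithelial and cervical carcinoma markers, 8 had a mean of at least 1 FPKM (fragments per kilobase, scaled to the sample total), KRT5 being the exception, and the 9 summed to 2000–2060 FPKM with si-CNN3#1 and 1994–2028 with si-NC. The 8 markers of blood, endothelial, stromal and muscle cells in the table summed to 11.6–12.1 and 11.3–12.2 FPKM. Of these, 4 had a mean of at least 1 FPKM. The highest was ACTA2, at 5.57 FPKM with si-CNN3#1 and 5.43 with si-NC, near the epithelial marker EPCAM at 5.87 and 5.45. Of the tested markers, 2 of 8 epithelial ones were called lower (KRT8 and KRT18, log2 fold changes -0.19 and -0.18). KRT17 was the 1 called higher (0.23). Over all tested genes 7.14% were called lower and 6.17% higher. Of the other cell types 0 of 5 were called by edgeR, DESeq2 or limma (1, COL3A1, at an unadjusted p under 0.05 in edgeR).

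The promoters of the set are shown first for the 4 factors that carry the core of the NRF1 binding motif, since NRF1 is itself in the set. RefSeq (GRCh38.p14) gave a window of 300 bases, 250 before and 50 from the start of transcription onwards, for 9 of the 10 factors, NRF1 being without an entry. The search covered 2 motifs on both strands, the NRF1 core GCGCNNGCGC and CCGGAAG, the core bound by ETS factors such as GABP. Capitals mark the matches, CTTCCGG being the second motif read on the other strand, and each sequence runs 5′ to 3′ on the gene's strand:
TFAM (chr10:58385160-58385459, plus strand): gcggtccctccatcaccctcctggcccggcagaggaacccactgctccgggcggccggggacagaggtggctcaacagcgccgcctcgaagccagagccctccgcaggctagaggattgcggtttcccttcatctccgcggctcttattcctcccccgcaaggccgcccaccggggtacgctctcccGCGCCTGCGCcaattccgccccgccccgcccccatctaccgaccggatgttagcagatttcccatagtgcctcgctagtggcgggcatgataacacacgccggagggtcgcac
POLG2 (chr17:64497005-64497304, minus strand): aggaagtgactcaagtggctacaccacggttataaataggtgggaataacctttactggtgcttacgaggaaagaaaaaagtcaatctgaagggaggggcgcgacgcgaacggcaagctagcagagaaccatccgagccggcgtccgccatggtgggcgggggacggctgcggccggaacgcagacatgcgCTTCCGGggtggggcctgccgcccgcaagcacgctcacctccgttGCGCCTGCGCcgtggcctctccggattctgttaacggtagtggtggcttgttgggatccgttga
TFB1M (chr6:155314435-155314734, minus strand): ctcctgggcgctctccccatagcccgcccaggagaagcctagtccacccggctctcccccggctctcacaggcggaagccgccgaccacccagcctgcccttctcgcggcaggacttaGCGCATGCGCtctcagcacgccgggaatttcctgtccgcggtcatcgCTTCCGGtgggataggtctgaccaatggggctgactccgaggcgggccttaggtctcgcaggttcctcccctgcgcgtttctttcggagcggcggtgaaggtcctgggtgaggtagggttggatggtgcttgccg
POLRMT (chr19:633488-633787, minus strand): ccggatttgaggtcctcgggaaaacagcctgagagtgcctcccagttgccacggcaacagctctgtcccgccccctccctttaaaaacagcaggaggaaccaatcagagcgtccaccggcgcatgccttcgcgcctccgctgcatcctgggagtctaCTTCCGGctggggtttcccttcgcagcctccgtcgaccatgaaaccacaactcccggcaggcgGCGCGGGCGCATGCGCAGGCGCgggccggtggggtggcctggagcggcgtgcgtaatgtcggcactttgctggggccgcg

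The NRF1 core stood in 4 of the 9 windows, and in 8.32% of all 35116 windows and 15.8% of the 10570 windows of tested genes. The match began at base -63 from the start in TFAM, at -14 in POLG2 and at -132 in TFB1M. POLRMT had 3 overlapping matches, at -30, -24 and -18, which share letters. The ETS core stood in 5 of the 9 (TFB1M, POLRMT, POLG2, SSBP1 and MTERF1), against 10.3% of all windows and 18.6% of those of tested genes. The log2 fold changes of the 4 factors with the NRF1 core were -0.48 (TFAM), -0.23 (POLG2), -0.12 (TFB1M, not called) and -0.10 (POLRMT, not called). Factors whose window lacked it had -0.14 (PPARGC1B), -0.07 (MTERF1), -0.04 (POLG), -0.02 (TFB2M) and 0.08 (SSBP1), none of them called. Differences between factors with and without the core were not tested, and TFAM is the value that chose the set. A match of letters is not a bound site, a window without an exact match can still hold a near match, and no binding was measured.

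TFAM (chr10:58385022-58399221, plus strand, GRCh38, GENCODE 29) gave 111.0, 117.4 and 120.8 normalized CPM with si-CNN3#1 and 156.6, 166.6 and 163.4 with si-NC. The highest knockdown sample lay well below the lowest control. The means were 116.4 ± 4.96 and 162.2 ± 5.10 CPM (SD, n = 3 each), so that 71.8% of the control level was left. The log2 fold change was -0.48 (SE 0.03, 95% confidence interval -0.55 to -0.41), the value that chose the set. The raw counts behind it were 2093, 2254 and 2205 against 3142, 4147 and 3524. Among the 15860 tested genes TFAM stood at place 244 counted from the largest decrease, within the lowest 1.54%. Its processed pseudogenes TFAMP1 and TFAMP2 had 0 counts in every sample. In bulk RNA, fewer cells of a type and less RNA per cell cannot be told apart, which holds for every value given here.

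The partners of TFAM at the mitochondrial promoter lay closer to control. POLRMT had 83.0, 82.7 and 79.5 CPM with si-CNN3#1 and 91.0, 87.3 and 84.2 with si-NC. The groups did not overlap, but the nearest samples were 82.95 and 84.23 CPM, and POLRMT was not called (log2 fold change -0.10, SE 0.04, interval -0.17 to -0.02). TFB2M, which melts the promoter with the polymerase, had 29.12, 28.95 and 29.90 CPM against 29.7, 29.7 and 30.0. Its groups overlapped and its log2 fold change was -0.02 (SE 0.05, interval -0.13 to 0.09). TFB1M, a methyltransferase of the mitochondrial small ribosomal RNA, had 7.80, 7.24 and 7.56 CPM against 8.274, 8.999 and 7.139. The lowest of its 6 values was a control, and the interval of its log2 fold change, -0.33 to 0.09, was the widest of the set. TFB1M overlaps TIAM2 (57 to 76 counts) and CLDN20 (14 to 40 counts) on the opposite strand. MTERF1, which binds a termination site in the mitochondrial genome, had 13.8, 14.5 and 15.9 CPM against 15.9, 15.4 and 15.3 (log2 fold change -0.07, SE 0.08). Its groups overlapped as well.

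POLG2 (chr17:64477785-64497036, minus strand), the accessory subunit of the DNA polymerase, was the replication factor of the set with the lowest log2 fold change. It had 13.1, 11.9 and 13.5 CPM with si-CNN3#1 and 14.5, 14.7 and 16.1 with si-NC, from 229 to 366 counts a sample. All 3 knockdown values lay under the controls, at 85.1% of the control mean (log2 fold change -0.23, SE 0.08, interval -0.39 to -0.08). POLG2 was called lower, and the call rests on single samples. Without si-CNN3#1 replicate 1 or 2, or without si-NC replicate 2 or 3, it was no longer called, with log2 fold changes of -0.25, -0.18, -0.25 and -0.19. The same held with DESeq2 (-0.23), with total counts as the library size (-0.22), with counts thinned to the smallest total (-0.19) and with limma on unfiltered FPKM (-0.20).

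POLG, the catalytic subunit that POLG2 holds on the DNA, had 156.6, 150.2 and 151.9 CPM against 155.8, 156.2 and 159.3. The knockdown sample of 156.6 CPM lay above the lower controls, and the log2 fold change was -0.04 (SE 0.03, interval -0.10 to 0.02). The POLG to POLG2 ratio of FPKM within a sample was 7.64, 8.05 and 7.21 with si-CNN3#1 and 6.89, 6.80 and 6.33 with si-NC. The ratio was above every control in all 3 knockdown samples, and it follows from the POLG2 values already given. POLG overlaps FANCI on the opposite strand, which had 2952 to 4310 counts. Whether the counting used strand is not given in the sources used here, so reads from their overlap cannot be told apart.

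SSBP1 was the 1 factor with a positive log2 fold change, 0.08 (SE 0.03, interval 0.01 to 0.15). Its 117.4, 111.3 and 114.4 CPM overlapped the controls at 108.4, 104.7 and 112.2, and it was not called. With total counts as the library size it was called higher, at 0.10. The TFAM to SSBP1 ratio of FPKM, for messages of 2 proteins that bind mtDNA, was 0.468 ± 0.03 with si-CNN3#1 and 0.688 ± 0.04 with si-NC (SD, n = 3).

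Neither nuclear regulator of the set was called. NRF1 had 29.6, 32.2 and 30.4 CPM against 31.3, 30.5 and 30.6, with a log2 fold change of -0.0028 (SE 0.05, interval -0.11 to 0.11). Its knockdown samples held both the highest and the lowest of the 6 values. PPARGC1B had 24.2, 23.8 and 22.8 CPM against 24.1, 25.6 and 28.1. The groups overlapped, through 1 knockdown sample at 24.18 and 1 control at 24.12, and the log2 fold change was -0.14 (SE 0.06, interval -0.26 to -0.01).

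**Figure D1:**
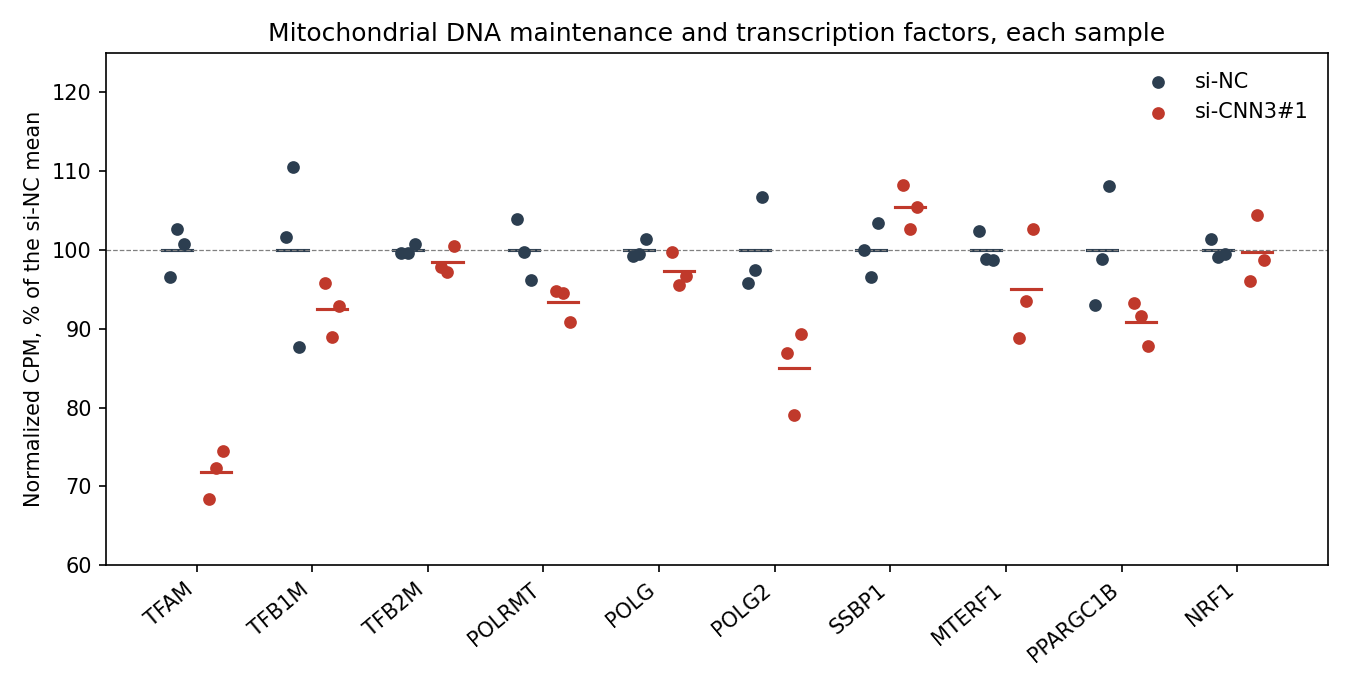
Normalized CPM of each factor in each sample, as a percentage of that gene's si-NC mean (y axis, starting at 60%). Points are samples and short lines are group means of 3. TFAM lies at 71.8% with si-CNN3#1 with no sample near the controls, and POLG2 at 85.1%. The groups overlap for 7 of the 10 factors. Over all tested genes the knockdown samples lay all below the controls in 14.3% and all above in 13.9%, and overlapped in the rest.

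Across the set, 2 of 10 factors were called lower and 0 higher, where 7.14% of all tested genes were called lower and 6.17% higher. This balance of 1133 lower and 978 higher genes depended on the scaling, since total counts as the library size gave 863 lower and 1294 higher, and limma on filtered FPKM 564 and 799. All 3 knockdown samples lay below all controls for 3 factors (TFAM, POLRMT and POLG2) and above for 0, and over all tested genes these shares were 14.3% and 13.9%. The median log2 fold change of the 10 was -0.09, with 9 below 0 (among them NRF1, at -0.0028, whose sign turned under 8 of 17 alternatives), beside 0.002 over all tested genes. At an unadjusted p under 0.05 edgeR counted 4 factors lower and 1 higher, and DESeq2 and limma on filtered FPKM called 0 higher after adjustment. Because TFAM chose the list, nothing is read from these counts.

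**Figure D2:**
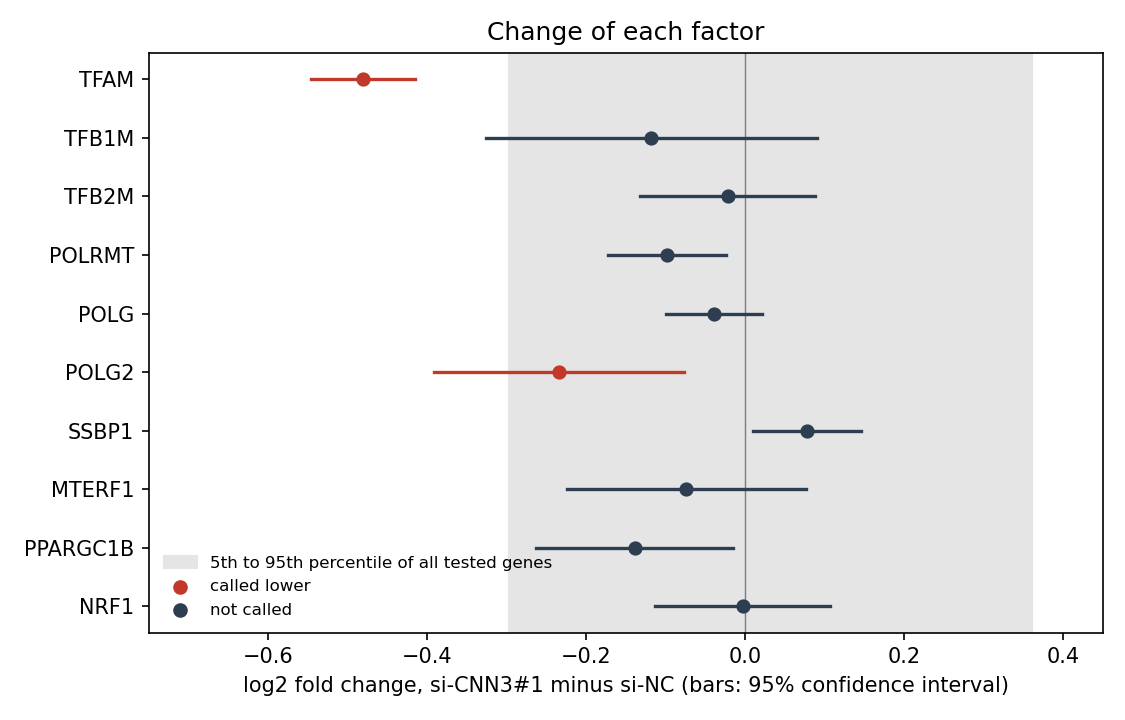
log2 fold change of each factor, si-CNN3#1 minus si-NC (x axis), as a point with its 95% confidence interval, over a grey band from the 5th to the 95th percentile of all tested genes (-0.30 to 0.36). TFAM, at -0.48, is the factor whose point and whole interval lie outside the band.

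Levels between genes were compared per length, on the deposited FPKM scale. In the controls the order was POLG (130 ± 1.70 FPKM, SD, n = 3), SSBP1 (115 ± 3.74), TFAM (78.8 ± 2.77), POLRMT (66.6 ± 2.47), TFB2M (22.1 ± 0.16), POLG2 (19.5 ± 1.14), NRF1 (13.8 ± 0.13), TFB1M (12.6 ± 1.48), MTERF1 (10.96 ± 0.19) and PPARGC1B (7.17 ± 0.56). TFB1M overlapped both neighbours, NRF1 and MTERF1, and all other neighbours were apart in their 3 samples. On this scale POLRMT was 3.02 times TFB2M, a step that was smaller on the other lengths given next. In si-CNN3#1 TFAM, at 57.2 ± 2.69 FPKM, came below POLRMT, at 62.9 ± 1.45. The TFAM to POLRMT ratio was 0.855, 0.906 and 0.971 in the knockdown samples and 1.10, 1.22 and 1.24 in the controls.

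This order depends on the gene lengths behind the FPKM, which are 18.8% to 72.4% of the merged exon length in GENCODE 29 (1201 against 5980 bases for POLG, 2043 against 5606 for TFAM). By counts per kilobase of merged exon length, scaled to the sample total, TFAM came first at 28.7 ± 1.01, before POLG at 26.1 ± 0.34 and SSBP1 at 21.6 ± 0.70. By the longest coding transcript SSBP1 came first at 109 ± 3.55, POLG had 34.7 ± 0.45 and TFAM 29.7 ± 1.05. POLG, SSBP1, TFAM and POLRMT were the upper 4 and PPARGC1B the lowest on all 3 lengths. POLRMT and TFB2M were nearer to each other than by FPKM, at 16.95 and 15.99 by merged exons and 22.65 and 15.99 by longest transcript. On the longer lengths TFAM stayed above or level with POLRMT in the knockdown samples (20.9 ± 0.98 against 16.02 ± 0.37 by merged exons, 21.6 ± 1.02 against 21.4 ± 0.49 by longest transcript).

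**Figure D3:**
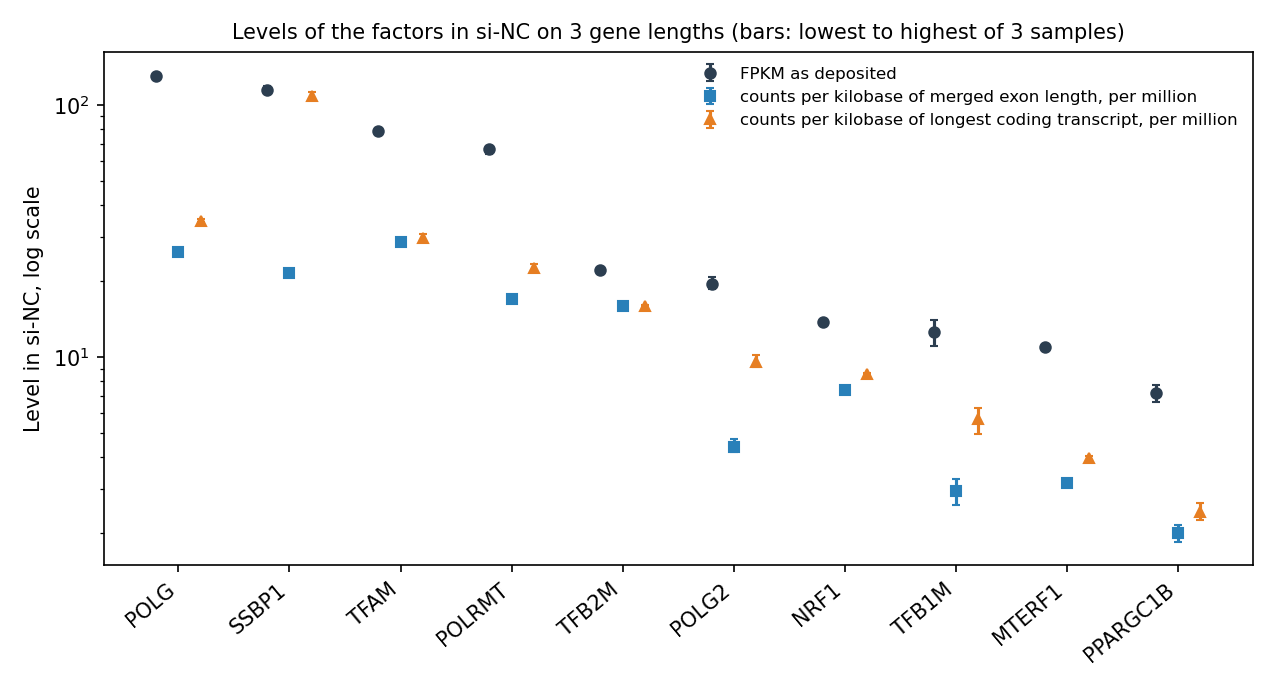
Level of each factor in si-NC (y axis, log scale) as deposited FPKM and as counts per kilobase, scaled to the sample total, on 2 GENCODE 29 lengths. Symbols are means of 3 samples and bars run from the lowest to the highest; the same 4 genes lead on all 3 lengths, while POLG falls from 130 FPKM to 26.1 by merged exon length.

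The genes nearest to TFAM over the 6 samples were TBC1D13, ZMPSTE24, MPZL2, PGRMC1 and TMEM30A. Nearness was the root mean square difference of log2 normalized CPM, each gene centred on its own mean, over 14110 genes with a mean of at least 1 CPM. The differences were 0.029, 0.034, 0.043, 0.044 and 0.050 on the log2 scale. TMEM30A is also among the genes the study itself called in these samples. The log2 fold changes of these 5 genes were -0.49, -0.44, -0.47, -0.45 and -0.43, close to the value that chose TFAM. No other factor of the set was among the 5. Since the other factors had log2 fold changes of -0.23 (POLG2) or above, nothing is read from their absence.

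The siRNA was set beside the transcripts of the set, because its guide strand can pair with other messages through bases 2 to 8. The guide was derived by reversing and complementing the labelled sense strand, without its TT end. Capitals mark the seed in the guide and the letters that pair with it in the longest coding transcript (GENCODE 29):
si-CNN3#1 guide: uUUGUUGGuucccaucugc
TFAM (transcript TFAM-204): ttaatttcatCCAACAAagtagttgct
PPARGC1B (transcript PPARGC1B-201): tggaaggtttCCAACAAtcacacaaaa

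Both matches lie in the 3′ UTR, from base 4448 of 5414 in TFAM-204 and from base 5192 of 10568 in PPARGC1B-201. The other 8 factors had none. The same 7 letters, CCAACAA, occur in 3090 of the 12697 longest coding transcripts of tested genes (24.3%). The si-NC seed had no match in the set, and one in 7.16% of those transcripts. Gene counts do not say whether SiHa cells use the long TFAM transcript, and the part of the match in the TFAM value was not tested.

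Around the set, 5 lists of nuclear genes were read in the same comparison, with adjusted p from edgeR's quasi-likelihood test over all 15860 genes. Of 75 listed genes 73 were tested, and 8 were called lower (10.96%), 4 higher (5.48%) and 61 neither, with a median log2 fold change of 0.002. The share over all genes was 7.14% lower and 6.17% higher. The 12 called genes are all named below.

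Of 15 genes of mtDNA replication and repair, 2 fell and 0 rose (1 higher at an unadjusted p under 0.05 in edgeR, 0 with DESeq2 or limma). TWNK, the replicative helicase, had 38.3, 38.4 and 40.7 CPM with si-CNN3#1 and 49.7, 45.6 and 47.9 with si-NC. Its groups were apart (log2 fold change -0.28, SE 0.05; adjusted p = 1.62e-05, edgeR), and it was called under all 17 alternatives. TOP3A, a topoisomerase that separates finished circles and also works in the nucleus, fell by 0.13 on the log2 scale (SE 0.04; edgeR adjusted p = 0.00661). It was no longer called without si-NC replicate 1 (adjusted p = 0.0642, edgeR) or 2 (0.0558), in a range of 0.00041 to 0.204 over the alternatives. Among messages for proteins of the replication fork, TWNK thus lay at 82.0% of control and POLG2 at 85.1%. POLG at 97.3% and SSBP1 at 105.5% were not called, and no protein was measured.

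Of 20 tested genes of mitochondrial transcription and RNA processing, 0 fell and 1 rose, PRORP being too low to test. The count of 0 lower was the same at an unadjusted p under 0.05 in edgeR, and with DESeq2 or limma. SLIRP, which stabilizes mitochondrial messenger RNAs with LRPPRC, had 55.9, 56.7 and 62.7 CPM against 50.04, 52.11 and 51.08 (log2 fold change 0.19, SE 0.05; edgeR adjusted p = 0.0018). Without si-CNN3#1 replicate 3 its adjusted p was 0.0518 (edgeR), in a range of 0.000138 to 0.0875.

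Of 14 genes that act on the supply of DNA building blocks to mitochondria, by providing or removing them, 3 fell and 1 rose. SAMHD1, which breaks down deoxynucleotides, had 45.7, 43.6 and 43.8 CPM against 56.3, 56.9 and 53.6, with the groups apart (log2 fold change -0.33, SE 0.05; edgeR adjusted p = 1.89e-07). TK2, the mitochondrial thymidine kinase, had 65.7, 64.4 and 62.4 CPM against 57.4, 54.1 and 55.3 (0.21, SE 0.04; edgeR adjusted p = 0.000203). These 2 were called under all 17 alternatives. RRM2, a subunit of ribonucleotide reductase, fell by 0.14 on the log2 scale (edgeR adjusted p = 0.000482). TYMS, thymidylate synthase, fell by 0.10 with overlapping groups (edgeR adjusted p = 0.0457), and was not called under 11 of the 17 alternatives. Without si-CNN3#1 replicate 1 or 2, or si-NC replicate 1 or 2, the edgeR adjusted p of TYMS was 0.101, 0.19, 0.201 and 0.207, in a range of 0.0106 to 0.361.

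Of 14 tested nuclear regulators of mitochondrial biogenesis outside the set, 3 fell and 1 rose, ESRRG being too low to test. MYC, a growth-promoting transcription factor, had 124.6, 118.3 and 116.2 CPM against 140.5, 130.9 and 136.3 (log2 fold change -0.18, SE 0.03; edgeR adjusted p = 5.03e-05). SP1 and YY1, general transcription factors, fell by 0.12 and 0.09 (edgeR adjusted p = 0.0011 and 0.0316). PRKAA2, a catalytic subunit of the energy-sensing kinase AMPK, had 23.4, 22.5 and 24.2 CPM against 20.3, 19.2 and 20.4 (0.23, SE 0.06; edgeR adjusted p = 0.00779). YY1 was not called without si-CNN3#1 replicate 3 (edgeR adjusted p = 0.241) or without si-NC replicate 1, 2 or 3 (0.0898, 0.0562 and 0.0973), in a range of 0.00268 to 0.356. PRKAA2 was not called without si-CNN3#1 replicate 3 (0.052, edgeR adjusted p) or si-NC replicate 2 (0.0646), in a range of 0.00365 to 0.496. DESeq2 and limma on filtered FPKM called neither YY1 nor PRKAA2, and each gave 2 lower and 0 higher in this list. YY1 was called under 7 of the 17 alternatives and PRKAA2 under 11.

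Of 10 matrix proteases and nucleoid proteins, 0 fell and 1 rose (2 lower at an unadjusted p under 0.05 in edgeR, 0 with DESeq2 or limma). HSPD1, the matrix chaperonin that the study also called in these samples, was at 1432 ± 28.2 CPM against 1322 ± 13.1 (SD, n = 3; log2 fold change 0.11, SE 0.02; edgeR adjusted p = 0.000318). The other 9, which include the proteases that can degrade mitochondrial DNA-binding proteins, were not called and ran from -0.09 to 0.07.

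**Figure D4:**
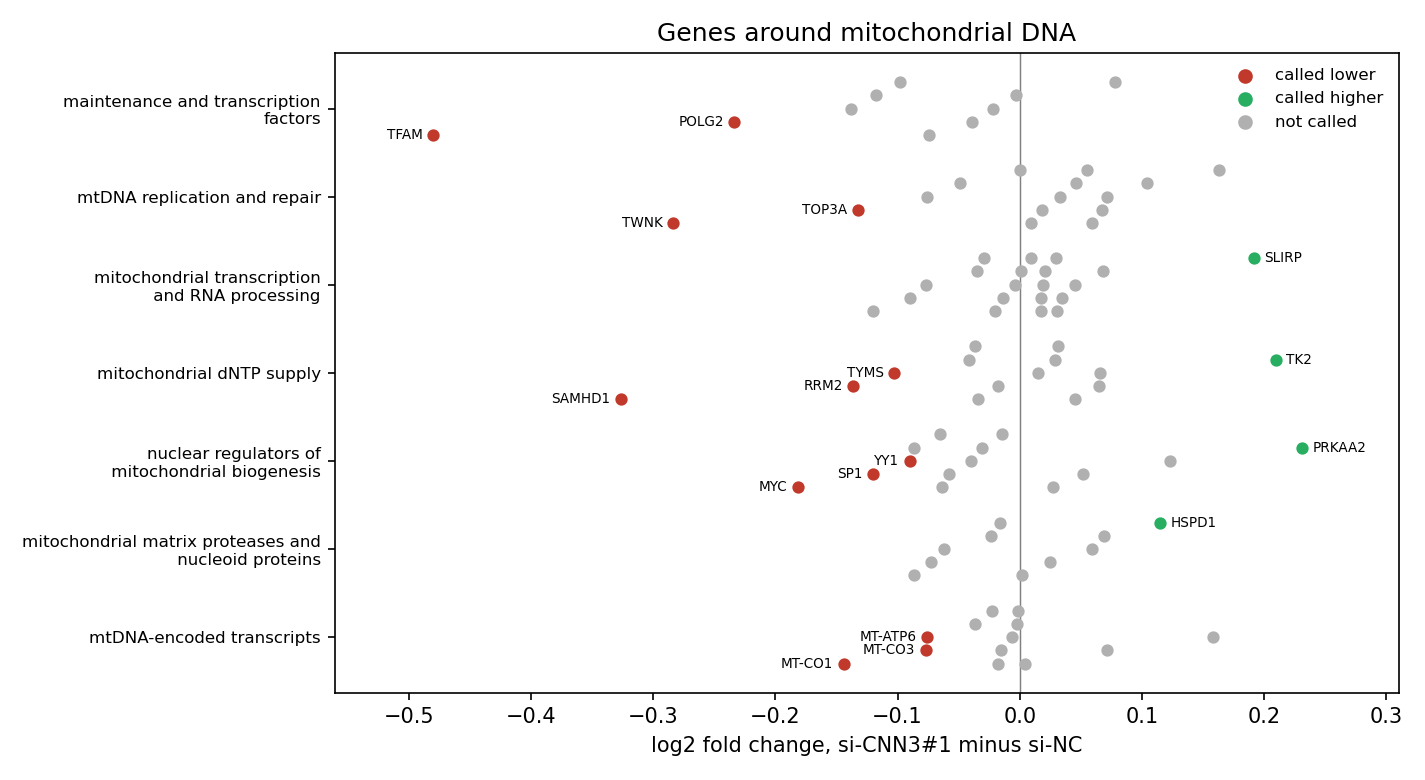
log2 fold change, si-CNN3#1 minus si-NC (x axis), of every tested gene of the 10 factors, the 5 nuclear lists and the mtDNA-encoded transcripts. Each point is a gene, spread vertically for legibility, with called genes in colour and named; TFAM at -0.48 and SAMHD1 at -0.33 lie farthest to the left.

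The messages that this machinery makes were read last. All 13 protein-coding genes of mtDNA were tested, and the 2 ribosomal RNAs were not analysed here. The log2 fold changes of the 13 ran from -0.14 (MT-CO1) to 0.16 (MT-ATP8, not called), with a median of -0.02. Of the 13, 3 fell (23.1%), 0 rose and 10 were not called, where 7.14% of all tested genes were called lower and 6.17% higher. At an unadjusted p under 0.05 edgeR counted 2 higher, and DESeq2 and limma called 0 higher. MT-CO1, a cytochrome c oxidase subunit, had 11480, 10870 and 10800 CPM against 12800, 11670 and 12160 (SE 0.03; edgeR adjusted p = 2.62e-05). MT-CO3, another oxidase subunit, and MT-ATP6, a subunit of ATP synthase, fell by 0.08 each on the log2 scale (edgeR adjusted p = 0.0153 and 0.029). MT-CO3 was not called without si-NC replicate 1 or 3 (edgeR adjusted p = 0.0771 and 0.0743, range 5.82e-06 to 0.462). MT-ATP6 was not called without si-CNN3#1 replicate 2 or 3 or si-NC replicate 1 (edgeR adjusted p = 0.0739, 0.165 and 0.217, range 2.54e-05 to 0.519). limma on FPKM called neither of these 2 genes, and with total counts as the library size MT-ATP6 was not called. MT-CO3 was called under 12 of the 17 alternatives and MT-ATP6 under 10.

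The 13 messages took 3.08%, 3.02% and 2.99% of all counts with si-CNN3#1 and 3.23%, 3.10% and 3.15% with si-NC. The groups were apart by little, 3.03% ± 0.045 against 3.16% ± 0.066 (SD, n = 3 each; exact two-sided permutation p = 0.1, the smallest that 3 against 3 can give). MT-CO1 had the most counts of the 13 and also the lowest log2 fold change, so it weighs most in this share. The share therefore does not describe each message, and the median log2 fold change of the 13 was -0.02. Reads can be split between mtDNA and its nuclear copies. The 386 copies in the table held 5901 to 7615 counts a sample in all, of which MTATP6P1, the copy of MT-ATP6, held 4490 to 5817. TFAM at 71.8% of control thus stood beside mtDNA messages at 90.5% (MT-CO1) to 111.5% (MT-ATP8) of control.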

How the data were processed

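RNA of 3 si-CNN3#1 and 3 si-NC samples of SiHa cells was sequenced. The authors aligned the reads and deposited unscaled counts for each Ensembl gene, with FPKM values made from them. The submitters' processing notes name TopHat2 2.0.9, Bowtie2 2.0.6, HTSeq and DESeq 1.10.1. The genome build, annotation and strand setting are not given in the sources used here. FPKM equalled count over length and total with 1 whole length per gene for 30502 of 30502 genes with counts (tolerance 0.0001 bases). GENCODE 29 named 45342 of 48162 genes.

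Counts were tested with edgeR 4.0.16 in R 4.3.3 (TMM, filterByExpr, quasi-likelihood test, condition only), with Benjamini-Hochberg adjustment over 15860 genes. A gene was called at an adjusted p of 0.05 or less. Fold changes were si-CNN3#1 minus si-NC on the log2 scale. CPM were scaled by TMM. The scripts were tested on simulated data. Alternatives were other normalizations and filters, DESeq2 1.42.0, limma 3.58.1 on log2 FPKM with a pseudocount of 1 or 0.1, which understates changes of low genes, thinning, a replicate block and each sample left out. The 2 GENCODE lengths were added after seeing the data. Pairs of samples of 1 group differed by more than counting error, with a chi-square statistic of 1.52 to 1.90 for each degree of freedom, so none was counted as a duplicate.

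The 10 factors, the gene lists and the tests were chosen with earlier results of these data known. Named were all 10 factors, CNN3, up to 4 called genes per direction and list, the highest and lowest mtDNA-encoded transcripts, and the 5 genes nearest to TFAM. Genes behind counts of 5 or fewer were named where the main test called them.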

Additional observations from a re-analysis of the deposited data

How the results depend on the processing

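CNN3 was called under all 17 alternatives (log2 fold change -1.06 to -0.92), as were TWNK, SAMHD1, TK2 and SP1. TFAM, the value that chose the set, ran from -0.51 to -0.45. No called gene of the factors or lists changed sign, and of the factors NRF1, not called, was positive under 8 of the 17 (-0.04 to 0.02). With total counts as the library size, 1 factor was called lower and 1 higher, in place of 2 and 0, and 863 genes lower and 1294 higher, in place of 1133 and 978. Upper quartile scaling gave 1010 and 1046. DESeq2 called 640 genes lower and 433 higher, and 1 factor lower. Thinned counts gave 1 factor lower. limma with a mean FPKM of at least 1 and either pseudocount gave 564 genes lower (799 or 789 higher) and, also lower, 4 genes of the nuclear lists (in place of 8) and 1 mtDNA-encoded gene (in place of 3). limma without a filter gave 269 genes lower and 316 higher, 1 factor lower, 3 list genes lower and 1 higher (in place of 4), and 0 mtDNA-encoded genes. The cause of these shifts was not tested. Leaving out 1 sample at a time gave 1 to 2 factors lower, 5 to 8 list genes lower, 2 to 4 higher, and 2 to 3 mtDNA-encoded genes. POLRMT was called lower without si-NC replicate 3 (log2 fold change -0.13). By merged exon length 3 of 10 factors kept their place in the order of levels, and by longest coding transcript 8. Whether the replicate numbers pair the samples was not settled. In deviations from the group means, same-numbered samples correlated at 0.0105, 0.0329 and 0.0275, and all differently numbered pairs were below 0. These correlations are small, and they cannot show that the samples were unpaired. The replicate block gave 1455 genes lower and 1272 higher, 3 factors lower (TFAM, POLG2 and POLRMT), and 5 mtDNA-encoded genes called. Depth was 18147028 counts or more, and the lowest counts in the set, from 138 for TFB1M, gave the widest interval.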
